A study of Homo sapiens with 6 samples.

Results

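Spliceosomal U RNAs are the short nuclear RNAs at the core of the spliceosome, the particle that removes introns from pre-mRNA. The 10 genes RNU1-1, RNU2-1, RNU4-1, RNU4-2, RNU5A-1, RNU6-1, RNU11, RNU12, RNU4ATAC and RNU6ATAC were taken by symbol, as named genes of the major and minor spliceosome, and all 10 were among the 38167 genes of the count table. The RNA came from small extracellular vesicles that spheroids of Cal27, an established cell line from a squamous carcinoma of the tongue, had released. The 3 stiff libraries came from spheroids kept for 14 days in Matrigel at 12 mg/mL, and the 3 soft libraries from spheroids kept for 14 days in Matrigel at 3 mg/mL. Matrigel is a gel of basement membrane proteins, and every library used the same single cell line with no further agent or allele in the labels. The labels name the libraries of a group biological replicates. P-values set the difference between the groups against the spread between these libraries, estimated with help from all genes. Vesicles were gathered by insulator-based dielectrophoresis, so each value is the mixture of all the particles that were trapped. The study's question was what a stiffer matrix does to the vesicles of these spheroids.

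In the major spliceosome, U1 pairs with the 5′ splice site and U2 with the branch point. U4 and U6 arrive paired with each other and together with U5, which holds the exon ends, and U6 then replaces U1 at the 5′ splice site and pairs with U2 in the catalytic centre. The minor spliceosome removes a rare class of introns with U11, U12, U4atac and U6atac in the places of U1, U2, U4 and U6, and it shares U5. RNA polymerase II makes all of them except U6 and U6atac, which RNA polymerase III makes. The polymerase II transcripts are exported to the cytoplasm, receive a ring of Sm proteins on a short uridine-rich site with the help of the SMN complex, and return to the nucleus. Vesicles form outside the nucleus, and the major U RNAs are among the most abundant nuclear RNAs of a cell.

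The sequences below show what the reads had to tell apart. They are the annotated genes of GENCODE release 29 on GRCh38, on the strand of the gene and 5′ to 3′, with T for U. In the first 4, capitals mark the element that pairs with the splice site, the branch point or another U RNA, and the Sm site where a search found one.
RNU1-1, chr1:16514122-16514285, minus strand: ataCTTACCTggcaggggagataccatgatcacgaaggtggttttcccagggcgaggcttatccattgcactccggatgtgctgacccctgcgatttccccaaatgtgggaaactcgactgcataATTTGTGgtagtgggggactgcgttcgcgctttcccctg
RNU2-1, chr17:43233787-43233977, minus strand: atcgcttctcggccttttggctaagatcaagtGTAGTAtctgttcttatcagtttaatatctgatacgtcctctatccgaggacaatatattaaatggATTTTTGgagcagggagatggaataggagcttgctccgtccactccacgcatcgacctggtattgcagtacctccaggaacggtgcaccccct
RNU12, chr22:42615244-42615393, plus strand: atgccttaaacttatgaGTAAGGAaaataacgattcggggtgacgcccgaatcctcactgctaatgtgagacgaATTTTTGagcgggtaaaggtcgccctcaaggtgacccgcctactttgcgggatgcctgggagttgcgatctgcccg
RNU6ATAC, chr9:134164439-134164564, minus strand: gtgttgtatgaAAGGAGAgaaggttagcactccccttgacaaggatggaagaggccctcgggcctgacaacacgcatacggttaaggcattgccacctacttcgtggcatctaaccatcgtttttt
The Sm site was searched as ATTTNTG or ATTTNTTG on the strand of the gene, and 8 of the 10 genes held it. The exceptions were RNU6-1 and RNU6ATAC, whose RNAs carry LSm rings in place of Sm rings. Of 3672 GENCODE genes of 100 to 200 bases, 16.6% held the same letters, so a match alone is weak as a mark. The pairing elements were searched on the strand of the gene as well. CTTACCT of RNU1-1 stood in 1.93% of the 3672 genes, GTAGTA of RNU2-1 in 2.04%, GTAAGGA of RNU12 in 1.03% and AAGGAGA of RNU6ATAC in 3.35%. CTTTTAC, in the loop of RNU5A-1, stood in 1.01%, and AAAAAGG of RNU11 in 1.58%.

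Many of these genes have copies, and the library reads were 61 bp long. RNU1-1 shared all 164 bases with RNU1-2, RNU1-3, RNU1-4 and RNVU1-18. RNVU1-7, a variant U1 gene with its own row in the table, differed from RNU1-1 by T150C, with positions counted from 1 at the 5′ end of RNU1-1. The pair RNU4-1 and RNU4-2, both of them U4 genes, differed at 4 of 141 positions, C37T, G88A, C99A and C113T, counted from the 5′ end of RNU4-1. Capitals below mark the differing bases.
RNVU1-7, chr1:148038753-148038916, minus strand: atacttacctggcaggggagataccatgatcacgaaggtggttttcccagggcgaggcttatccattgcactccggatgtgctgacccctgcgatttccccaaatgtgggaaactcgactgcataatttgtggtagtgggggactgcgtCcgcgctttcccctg
RNU4-1, chr12:120293097-120293237, minus strand: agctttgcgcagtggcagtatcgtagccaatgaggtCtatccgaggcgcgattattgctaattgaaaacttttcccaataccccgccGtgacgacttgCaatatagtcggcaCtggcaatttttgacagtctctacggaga
RNU4-2, chr12:120291763-120291903, minus strand: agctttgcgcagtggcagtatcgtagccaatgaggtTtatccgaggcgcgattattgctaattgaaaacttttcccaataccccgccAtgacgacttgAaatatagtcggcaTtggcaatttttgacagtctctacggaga
RNU6-1 has identical copies in RNU6-2 and RNU6-9. How reads that match several places were counted is not given in the sources used here, so identical genes are uncertain one by one. RNU11 lies inside an exon of the lincRNA AL360012.1 on the same strand, and RNU12 inside an exon of the lincRNA Z93241.1 on the same strand, so their counts are uncertain for that reason. RNU2-1 lies in an intron of CCDC200 on the same strand. RNU5A-1 at chr15:65296051-65296166 lies in an intron of PARP16, and RNU4ATAC at chr2:121530881-121531007 in an intron of CLASP1, in both cases on the opposite strand, while RNU4ATAC also lies in an intron of AC012447.1 on the same strand. RNU6-1 lies in an intron of AC009292.2 on the opposite strand, and RNU1-1, RNU4-1, RNU4-2 and RNU6ATAC overlap no other annotated gene. Of the U1 genes identical to RNU1-1, RNU1-2 and RNU1-4 lie in introns of CROCC on the same strand. RNU1-4 also lies in an intron of CROCCP4 on that strand. RNU1-3 and RNU1-4 overlap lincRNA exons on the opposite strand, and RNVU1-18 overlaps no other annotated gene.

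The libraries held 2697502 to 2977837 counts in the stiff group and 2445498 to 2545385 in the soft group, and 97.5% to 97.9% of all genes had at least 1 count in each library. Ribosomal RNA genes took 20.02% to 22.9% of counts in stiff libraries, against 2.97%, 4.20% and 8.87% in soft replicates 1, 2 and 3. Messengers of the mitochondrial genome took 0.162% to 0.202% of counts in stiff libraries and 1.48% to 1.81% in soft libraries. Soft replicate 3 stood apart from its group in ribosomal RNA, in 7SL RNA and in the sum of RNU1-1 and its identical copies. In RNU1-1 alone it did not, with 35 and 36 counts in soft replicates 2 and 3. The 8 squamous epithelial markers summed to 798 to 891 counts in stiff libraries and 718 to 825 in soft libraries. In edgeR 4 of these 8 had an unadjusted p under 0.05, where 9.51% of all genes tested did, and all 4 were higher in stiff libraries. Of the 8, 3 had a log2 fold change below 0. The median log2 fold change over the 8 was 0.25, and -0.02 with library totals alone. KRT14, a basal keratin, was called, with 85, 103 and 70 counts in stiff replicates 1, 2 and 3, against 50, 69 and 49 counts in soft replicates 1, 2 and 3, a log2 fold change of 0.69 and an edgeR adjusted p of 0.0281. It was not called by limma-voom, by DESeq2 without independent filtering, or in edgeR with library totals alone or without stiff replicate 1, stiff replicate 2, soft replicate 1 or soft replicate 3. The 10 markers of blood, endothelium, fibroblasts, liver and glia summed to 815 to 895 counts in stiff libraries and 874 to 938 in soft libraries, and none was at 0 in any library. With library totals alone, edgeR called 3 of 17 markers tested, from both lists, where it called 4194 of 31074 genes. Per kb of exon, the squamous list had a median of 31.8 counts in stiff and 29.4 in soft libraries, and the list of other cell types 14.3 in stiff and 15.0 in soft libraries. The squamous markers were therefore higher per length, but markers of cells that a pure line lacks were not absent. The part of these differences in the U RNA values was not tested.

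The 10 genes took a very small share of the counts, and their further copies in the table are not in these sums. The 10 genes together had 23, 40 and 28 counts in stiff replicates 1, 2 and 3, against 36, 58 and 66 counts in soft replicates 1, 2 and 3. As a share of all counts this was 0.00106% ± 0.00028 in stiff libraries and 0.00212% ± 0.00058 in soft libraries (SD, n = 3 each), a ratio of 0.499. The raw sums overlapped, since stiff replicate 2 held 40 counts and soft replicate 1 held 36, but the shares of the 2 groups did not, with stiff replicate 2 at 0.00138% and soft replicate 1 at 0.00147%. With ribosomal RNA and mitochondrial messengers left out of the denominator, the shares were 0.00135% in stiff and 0.00229% in soft libraries, a ratio of 0.588. With that denominator the groups overlapped, with stiff replicate 2 at 0.00173% and soft replicate 1 at 0.00154%. RNU1-1 alone held 126 of the counts over the 6 libraries, and RNU2-1 held 1.

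Set against other genes of their length, 7 of the 10 genes lay between the quartiles. The 514 other genes of 100 to 200 bases in the table, mostly miRNA hairpins and snoRNA genes, had a median of 8.27 counts per 100 bases over the 6 libraries, with quartiles at 4.87 and 15.0. RNU1-1 had 76.8 counts per 100 bases, above 98.8% of those genes. RNU6ATAC followed with 22.2 counts per 100 bases, above 87.5% of them. RNU5A-1 with 13.7, RNU6-1 with 12.1, RNU4-1 with 11.7, RNU4ATAC with 10.8, RNU12 with 10.7, RNU11 with 8.15 and RNU4-2 with 6.21 counts per 100 bases all lay between the quartiles. RNU2-1 had 0.532 counts per 100 bases, and 2.33% of the 514 genes had fewer. The order from RNU5A-1 down to RNU4-2 rests on 9 to 17 counts per gene, too few to rank neighbours. In cells the minor spliceosome RNAs are far scarcer than the major ones. Here RNU11, RNU12 and RNU4ATAC had 8.15 to 10.8 counts per 100 bases, within the 6.21 to 13.7 of the single U4, U5 and U6 genes, and RNU6ATAC had 22.2.

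**Figure D1:**
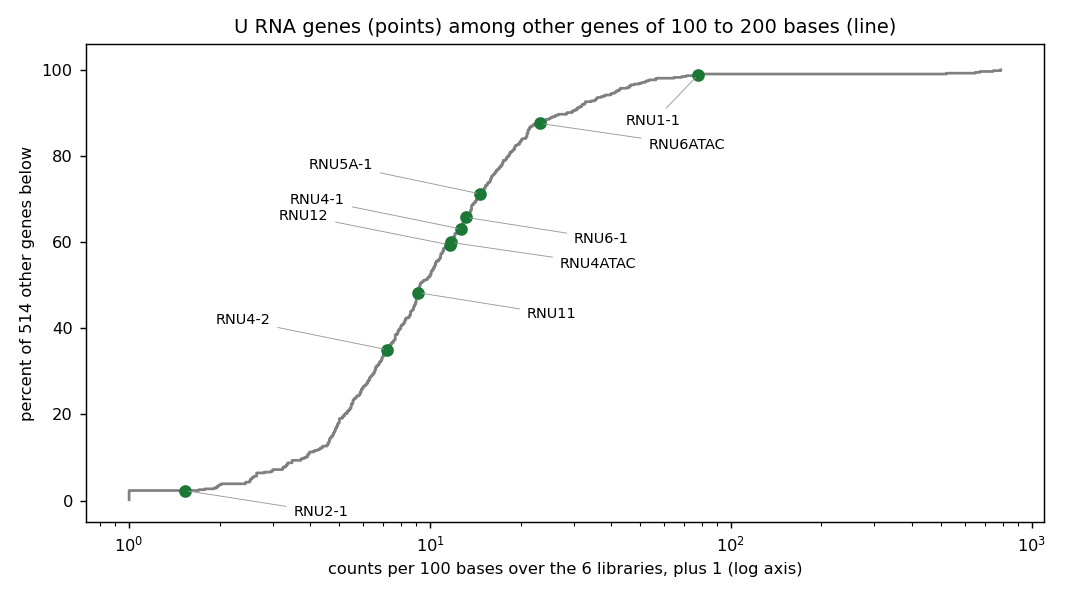
Counts per 100 bases over the 6 libraries (horizontal log axis, 1 added) of the 10 U RNA genes (points) on the cumulative curve of 514 other genes of 100 to 200 bases (line; the vertical axis is the percent of them below). RNU1-1 stands at 98.8%, RNU2-1 at 2.33%, and 7 genes sit in the steep middle of the curve.

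In the test across all genes (edgeR, raw counts with TMM scaling, Benjamini-Hochberg adjustment over 31074 genes, adjusted p under 0.05), 140 genes were called between stiff and soft, 89 higher (0.286%) and 51 lower (0.164%) in stiff libraries, or 0.451% of the genes tested. Scaled by library totals alone, 4194 genes were called, 31 higher and 4163 lower, with the median of all genes moved to a log2 fold change of -0.27. RNU1-1 was the only U RNA gene of the 10 with enough counts to enter the test, and 0 of 1 was called. Its unadjusted p was under 0.05, which held for 9.51% of all genes tested. With every gene with a count admitted, 0 of the 10 were called, where 0.373% of 38087 genes were, and 2 of the 10 had an unadjusted p under 0.05, where 8.76% of all genes did. Among 502 other genes of 100 to 200 bases with a count, 0.996% were called in that fit and 3.59% had an unadjusted p under 0.05. DESeq2 without independent filtering and limma-voom also called 0 of 1, with an unadjusted p under 0.05 for RNU1-1 in both. Mean levels in CPM, scaled by TMM, were lower in stiff libraries for 7 of the 10, against 50.2% of all genes with a count and 46% of 502 other genes of 100 to 200 bases with a count. Lower RNA per vesicle and fewer vesicles that carry an RNA cannot be told apart in such libraries, nor can fewer releasing cells and less RNA per cell.

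RNU1-1, 1 of 16 U1 genes in the table, was lower in stiff libraries in every pairing of libraries, but the test across all genes did not call it. It had 9, 16 and 12 counts in stiff replicates 1, 2 and 3, against 18, 35 and 36 counts in soft replicates 1, 2 and 3. The groups did not overlap, although stiff replicate 2 and soft replicate 1 were close. The mean level was 4.70 ± 1.15 CPM in stiff and 10.8 ± 3.75 CPM in soft libraries (SD, n = 3 each). The log2 fold change was -1.19 with a standard error of 0.33 and a 95% interval of -1.83 to -0.54, and edgeR gave an adjusted p of 0.0652. CPM values did not overlap with stiff lower for 6.23% of all genes with a count and for 3.98% of other genes of 100 to 200 bases. Without soft replicate 1 edgeR called it, with a log2 fold change of -1.44 and an adjusted p of 0.0164. Scaled by library totals alone it was called as well, with a log2 fold change of -1.45 and an adjusted p of 0.00163.

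**Figure D2:**
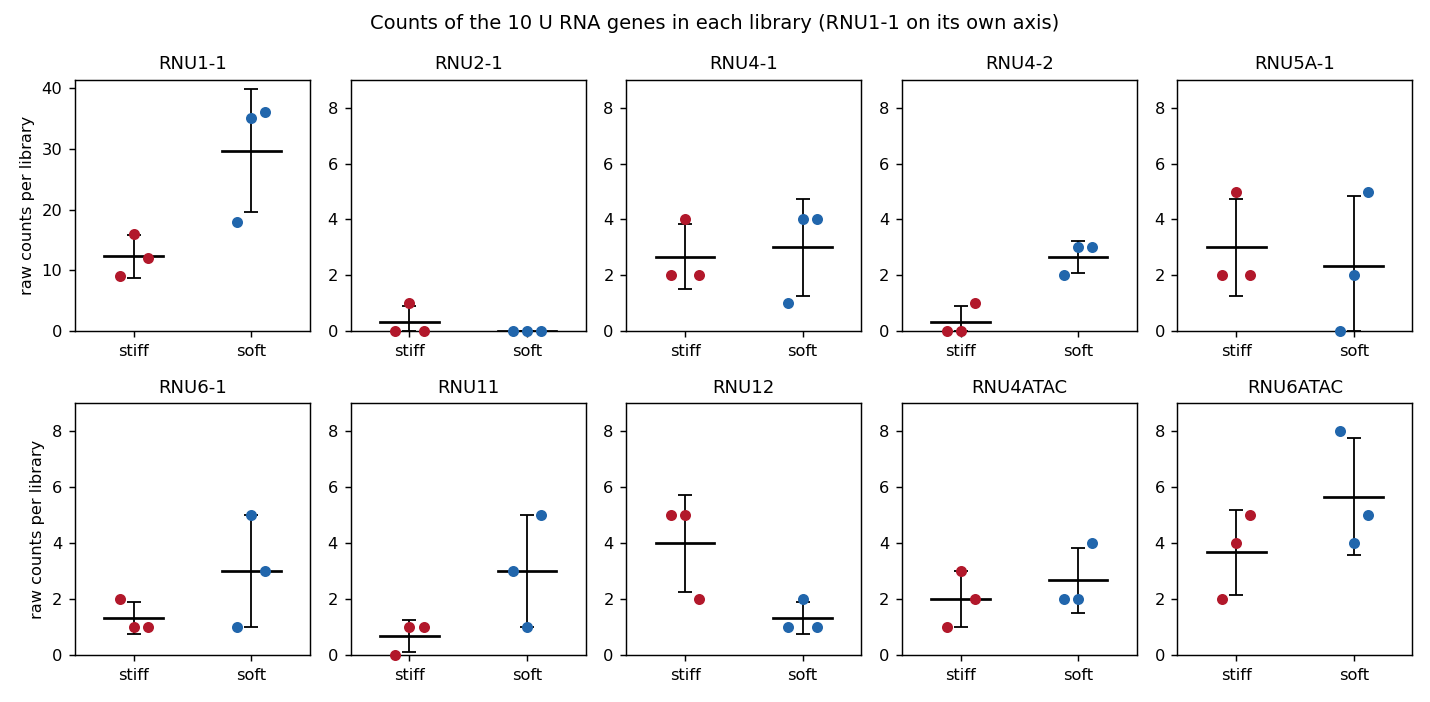
Raw counts per library (vertical axis) of each of the 10 U RNA genes in stiff (red, left) and soft (blue, right) libraries, with the group mean as a line and its SD as a bar drawn no lower than 0. RNU1-1 has its own axis and lies at 9 to 16 counts in stiff and 18 to 36 in soft libraries, while no other gene passes 8 counts in any library.

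Because RNU1-1 has the same letters as 4 other U1 genes in the table, their counts were also read as 1 sum, a choice made after the values were seen. The 5 genes together had 34, 40 and 60 counts in stiff replicates 1, 2 and 3, against 76, 75 and 132 counts in soft replicates 1, 2 and 3. Every soft library lay above every stiff one, which in CPM held for 6.23% of all genes with a count. Soft replicate 3 lay far above the other soft libraries. The mean was 17.1 ± 4.78 CPM in stiff and 34.5 ± 12.7 CPM in soft libraries (SD, n = 3 each). With the 5 rows summed, the U1 sum fell by 1.01 on the log2 scale in stiff libraries, with a standard error of 0.19 and a 95% interval of -1.38 to -0.64, at an edgeR adjusted p of 0.0003, where 0.454% of 31070 genes were called and 0.167% were called lower. That call rested on soft replicate 3: without it the log2 fold change was -0.66 and the edgeR adjusted p was 0.152. It was also lost in DESeq2 without independent filtering, where the log2 fold change was -1.01 and the adjusted p was 0.853, and without RNU1-1 in the sum, where they were -0.93 and 0.0534 in edgeR. Over all 17 alternatives the log2 fold change lay between -1.27 and -0.66 and the adjusted p between 2.2e-07 and 0.853.

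The identical genes did not carry the sum evenly. RNU1-4 had 6, 9 and 9 counts in stiff replicates 1, 2 and 3, against 15, 15 and 29 in soft replicates 1, 2 and 3. The groups did not overlap, which in CPM, with stiff lower, held for 6.23% of all genes with a count. RNU1-4 had a log2 fold change of -1.21 ± 0.40 (SE) and an edgeR adjusted p of 0.179. RNU1-2 had 7, 4 and 12 counts in the stiff replicates and 15, 12 and 26 in the soft replicates in the same order, so the groups met at 12 counts, with a log2 fold change of -1.12 ± 0.41 (SE) and an edgeR adjusted p of 0.268. RNU1-3 had 8, 5 and 7 counts in stiff and 18, 6 and 21 in soft libraries and fell under the filter on low counts. RNVU1-18 had 4, 6 and 20 counts in stiff and 10, 7 and 20 in soft libraries, with a log2 fold change of -0.23 ± 0.43 (SE) and an edgeR adjusted p of 0.921. The 5 have the same letters, and the rule by which their reads were divided is not given, so the split among them is uncertain. Their sum depends on that rule too. If reads that match several copies were counted in each, they entered the sum more than once, and its standard error is too small. If such reads were dropped, the sum lacks them.

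The 11 U1 genes that the table lists beside these 5 were also lower on average in stiff libraries, by less. They summed to 36, 61 and 63 counts in stiff replicates 1, 2 and 3, against 75, 73 and 83 counts in soft replicates 1, 2 and 3. The groups did not overlap, which in CPM, with stiff lower, held for 6.23% of all genes with a count. The mean of this sum was 20.3 ± 4.95 CPM in stiff and 28.0 ± 2.53 CPM in soft libraries (SD, n = 3 each). The log2 fold change was -0.46 with a 95% interval of -0.82 to -0.10 and an edgeR adjusted p of 0.332. The difference between the 2 U1 sums was not tested. RNVU1-7, which differs from RNU1-1 by a single base, had 3, 19 and 7 counts in stiff and 15, 17 and 29 in soft libraries, with a log2 fold change of -0.997 ± 0.385 (SE) and an edgeR adjusted p of 0.304. RNVU1-2A had 7, 6 and 12 counts in stiff and 10, 10 and 14 in soft libraries, with a log2 fold change of -0.37 and an edgeR adjusted p of 0.861. The other 9 of them, RNVU1-1, RNVU1-3, RNVU1-4, RNVU1-6, RNVU1-8, RNVU1-14, RNVU1-15, RNVU1-17 and RNVU1-19, had 19 to 41 counts each over the 6 libraries.

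**Figure D3:**
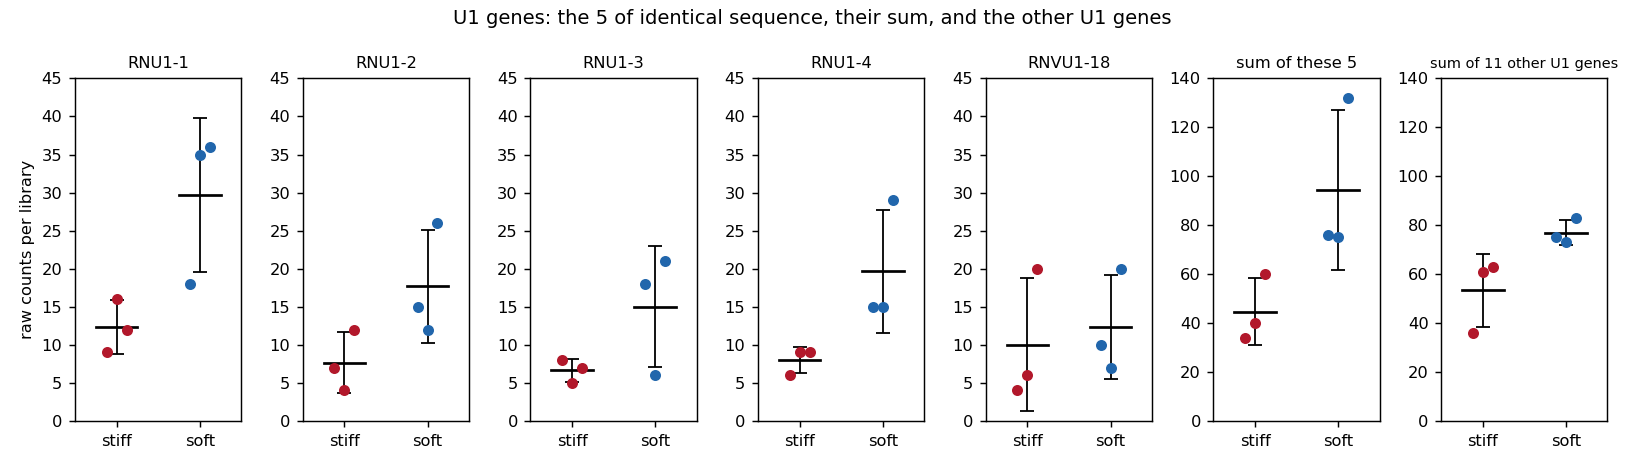
Raw counts per library (vertical axis) of the 5 U1 genes of identical sequence, of their sum and of the sum of 11 other U1 genes, in stiff (red, left) and soft (blue, right) libraries, with the group mean as a line and its SD as a bar. The sum of the 5 lies at 34 to 60 counts in stiff and 75 to 132 in soft libraries, and its highest point is soft replicate 3.

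For U2, which pairs with the branch point, the table held RNU2-1 as the only gene by name, and that row was nearly empty. RNU2-1 had 0, 1 and 0 counts in stiff replicates 1, 2 and 3, and 0 counts in every soft library. By library totals, without TMM scaling, a count of 0 allows up to 1.18 to 1.23 CPM in a soft library. In a stiff library it allows up to 1.01 to 1.11 CPM, so no difference could be seen at this depth. The libraries went through PCR and carry no molecular identifiers, so these limits and all intervals from counts cover counting error only. In cells U1 and U2 are both major RNAs, whereas in this table RNU1-1 had 126 counts and RNU2-1 had 1. How reads that match several places were counted is not given, so the level of U2 RNA cannot be read from this row.

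The U4 genes were at the level of a few reads. RNU4-1 had 2, 4 and 2 counts in stiff replicates 1, 2 and 3, against 1, 4 and 4 counts in soft replicates 1, 2 and 3, and the groups overlapped. Its log2 fold change without the filter was -0.09 with a 95% interval of -1.63 to 1.45. RNU4-2 had 0, 0 and 1 counts in the stiff replicates against 2, 3 and 3 counts in the soft replicates, and these groups did not overlap. With 1 count over the stiff libraries and 8 over the soft libraries, the scaled ratio of stiff to soft was 0.132, with an exact 95% counting interval of 0.00298 to 0.985. In edgeR without the filter RNU4-2 had an unadjusted p of 0.0399 and an adjusted p of 0.543. Together the U4 genes had 2, 4 and 3 counts in stiff and 3, 7 and 7 counts in soft libraries, so that the groups met at 3 counts.

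U5, the RNA that both spliceosomes share, overlapped between the groups. RNU5A-1 had 2, 5 and 2 counts in stiff replicates 1, 2 and 3, against 0, 2 and 5 counts in soft replicates 1, 2 and 3, and the soft libraries alone spanned the whole range. Its log2 fold change without the filter was 0.42 with a 95% interval of -1.17 to 2.01. The other U5 genes had fewer counts over the 6 libraries, with 13 for RNU5E-1, 6 for RNU5F-1, 3 for RNU5B-1 and 1 for RNU5D-1. All 5 U5 genes summed to 3, 7 and 5 counts in stiff and 7, 5 and 12 counts in soft libraries, which overlapped.

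U6, the catalytic RNA, was lower on average in stiff libraries but within counting error. RNU6-1 had 2, 1 and 1 counts in stiff replicates 1, 2 and 3, against 1, 5 and 3 counts in soft replicates 1, 2 and 3, overlapping at 1 and 2 counts. Its log2 fold change without the filter was -1.02 with a 95% interval of -2.83 to 0.78. With its identical copies RNU6-2 and RNU6-9 added, the counts were 4, 3 and 7 in stiff and 9, 10 and 6 in soft libraries, still overlapping. Over all 5 U6 genes, RNU6-7 and RNU6-8 included, they were 5, 4 and 8 in stiff and 9, 14 and 9 in soft libraries. These did not overlap in counts, the only such case among these U6 readings. CPM values did not overlap with stiff lower for 6.23% of all genes with a count. RNU6-2 had 12, RNU6-9 had 14, RNU6-8 had 6 and RNU6-7 had 4 counts over the 6 libraries.

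The minor spliceosome RNAs had mean levels that differed in direction between the groups, and the 95% interval of each included no change. RNU11, the U1 counterpart, had 0, 1 and 1 counts in stiff replicates 1, 2 and 3, against 3, 1 and 5 counts in soft replicates 1, 2 and 3. The groups met at 1 count, and the scaled ratio of stiff to soft was 0.235 with an exact 95% counting interval of 0.0247 to 1.13. RNU12, the U2 counterpart, had 5, 5 and 2 counts in the stiff replicates against 1, 2 and 1 counts in the soft replicates. Its raw counts met at 2, but scaled levels did not overlap, at 1.55 ± 0.69 CPM in stiff and 0.483 ± 0.201 CPM in soft libraries (SD, n = 3 each). Its log2 fold change without the filter was 1.58 with a 95% interval of -0.10 to 3.25, at an edgeR adjusted p of 0.614. Levels did not overlap in either direction for 3 of the 10 genes, RNU1-1, RNU4-2 and RNU12, where 13.4% of all genes with a count and 9.56% of other genes of 100 to 200 bases did so.

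RNU4ATAC, the U4 counterpart, had 1, 3 and 2 counts in stiff replicates 1, 2 and 3, against 2, 2 and 4 counts in soft replicates 1, 2 and 3, with overlap and a log2 fold change of -0.32 (95% interval -2.01 to 1.37). RNU6ATAC, the U6 counterpart and second to RNU1-1 in counts, had 2, 4 and 5 counts in the stiff replicates against 8, 4 and 5 counts in the soft replicates. Stiff replicate 1 was the lowest and soft replicate 1 the highest, and the remaining libraries shared the values 4 and 5. Its log2 fold change without the filter was -0.54 with a 95% interval of -1.77 to 0.69. The 4 minor RNAs summed to 8, 13 and 10 counts in stiff and 14, 9 and 15 counts in soft libraries, which overlapped. The 9 genes without RNU1-1 summed to 14, 24 and 16 counts in stiff and 18, 23 and 30 counts in soft libraries, which overlapped too.

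**Figure D4:**
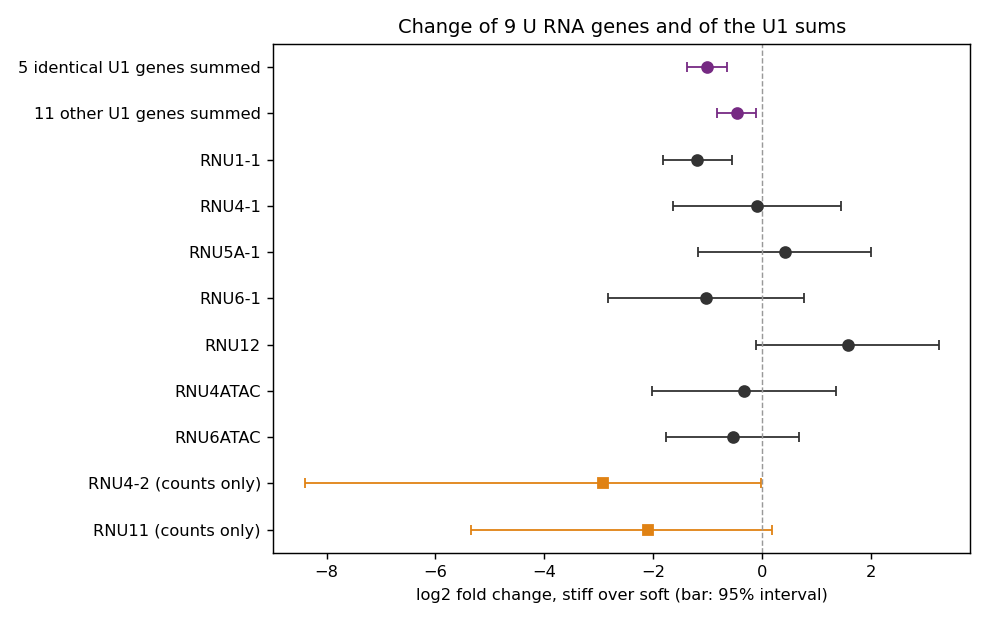
Log2 fold change of stiff over soft (horizontal axis, bars 95% intervals) for the 2 U1 sums (purple), for 7 genes as fitted by edgeR without the filter on low counts (black) and for RNU4-2 and RNU11 as ratios of summed counts with counting intervals (orange squares). Both sums, RNU1-1 and, barely, RNU4-2 have intervals below 0; RNU2-1, with 1 count in all, is not drawn.

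Of 28 further U RNA genes listed by name, 23 were in the table and 4 had enough counts for the test, RNU1-2, RNU1-4, RNVU1-7 and RNVU1-18. RNVU1-2A, which was not on that list, also entered the test, with a log2 fold change of -0.37 and an edgeR unadjusted p of 0.408. None of the 4 was called by edgeR, and 3 had an unadjusted p under 0.05, all of them lower in stiff libraries, where 4.5% of all genes tested were lower at that level. Without soft replicate 3 this held for 0 of the 4. With library totals alone 3 of the 4 were called, where 4194 of all 31074 genes were. DESeq2 without independent filtering and limma-voom called 0 of the 4, with 2 and 3 at an unadjusted p under 0.05. At that level they had 1311 and 2850 of the 31074 genes. In the main fit the median log2 fold change of the 4 was -1.06, against -0.005 for all 31074 genes. All 4 are U1 genes identical to RNU1-1 or, for RNVU1-7, a single base from it, so their counts may not be independent of its own. RNU7-1, the U7 RNA of histone messenger 3′ ends, had 0, 2 and 0 counts in stiff and 1, 1 and 3 counts in soft libraries. RNU6ATAC35P, the only U RNA pseudogene copy in the table, had 16, 16 and 17 counts in stiff and 16, 20 and 24 counts in soft libraries. It had a log2 fold change of -0.22 and an edgeR adjusted p of 0.903. It is 1793 bases long in RefSeq and 444 in GENCODE, against 126 for RNU6ATAC, so their raw counts do not compare directly.

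No messenger of the proteins that make, carry and bind U RNAs was called between stiff and soft libraries. Across 6 lists, 0 of 114 genes tested were called by edgeR, where 0.451% of all genes were, and 8 had an unadjusted p under 0.05, where 9.51% of all genes did. Of the Sm and LSm ring proteins, which clasp the U RNAs, 14 of 15 were tested with a median log2 fold change of -0.007, and LSM8, a subunit of the ring on U6, was at 36.8 ± 4.23 CPM in stiff and 31.1 ± 2.13 CPM in soft libraries (SD, n = 3 each; log2 fold change 0.24, edgeR adjusted p = 0.656). Of 20 proteins of the U1 and U2 particles the median was 0.03, and SF3B2, a subunit of the SF3b complex that holds the branch point, was at 48.9 CPM in stiff and 50.5 CPM in soft libraries (log2 fold change -0.05, edgeR adjusted p = 0.949). Of 17 proteins of the U4/U6 and U5 particles the median was 0.006, with SART1, which joins the U4/U6 and U5 particles, at 82.0 CPM in stiff and 88.5 CPM in soft libraries (log2 fold change -0.11, edgeR adjusted p = 0.78).

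Of 14 proteins of the minor spliceosome the median log2 fold change was 0.11, and SNRNP35, of the U11/U12 particle, was at 32.5 CPM in stiff and 30.6 CPM in soft libraries (log2 fold change 0.09, edgeR adjusted p = 0.912). Of 27 genes for U RNA transcription and 3′ processing the median was -0.02, and INTS1, a subunit of the Integrator complex that cuts the 3′ ends, was at 328.2 CPM in stiff and 296.1 CPM in soft libraries (log2 fold change 0.15, edgeR adjusted p = 0.494). Of 22 genes for export, capping and SMN assembly the median was -0.13, and GEMIN4, a subunit of the SMN complex, was at 49.4 CPM in stiff and 48.4 CPM in soft libraries (log2 fold change 0.02, edgeR adjusted p = 0.979). DESeq2 without independent filtering and limma-voom also called 0 of the 114, with 2 and 9 at an unadjusted p under 0.05. At that level they had 1311 and 2850 of all 31074 genes. With library totals alone, edgeR called 20 of the 114. That scaling called 4194 of all 31074 genes, 4163 of them lower in stiff libraries.

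Of the other short non-coding RNAs read beside them, RN7SL3 and RPPH1 were called higher in stiff libraries, with the opposite sign to U1. RN7SL1, the RNA of the signal recognition particle, had 1042, 1106 and 1270 counts in stiff replicates 1, 2 and 3, against 115, 280 and 599 counts in soft replicates 1, 2 and 3, with a log2 fold change of 1.85 and an edgeR adjusted p of 0.446. RN7SL3, a further 7SL gene, had a log2 fold change of 1.31 with an edgeR adjusted p of 0.000714, and RPPH1, the RNA of ribonuclease P, one of 0.97 with an edgeR adjusted p of 0.00361. RN7SK, which restrains the elongation factor P-TEFb, had 15, 19 and 23 counts in stiff and 4, 10 and 14 counts in soft libraries, with a log2 fold change of 1.09 and an edgeR adjusted p of 0.234. RMRP, the RNA of ribonuclease MRP, had a log2 fold change of 0.08 and an edgeR adjusted p of 0.979. Soft replicate 3 was the highest soft library in RN7SL1, as it was in ribosomal RNA and in U1, and the part of that library in the U1 values was not tested beyond leaving it out.

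The genes whose levels lay closest to those of RNU1-1 over the 6 libraries were found among 15770 genes with a mean of at least 50 counts, by the root mean square distance of log2 CPM after centring. HCG4B was nearest, at a distance of 0.327, with 13.8, 24.1 and 14.3 CPM in stiff replicates 1, 2 and 3, against 29.7, 34.6 and 31.6 CPM in soft replicates 1, 2 and 3. It was called lower in stiff libraries, with a log2 fold change of -0.87 and an edgeR adjusted p of 0.00262. LOC105375119 followed at 0.338, with a log2 fold change of -0.82 and an edgeR adjusted p of 0.0241. CCDC169 came next at 0.358, with a log2 fold change of -0.65 and an edgeR adjusted p of 0.104. They were picked for this likeness, so their direction is a description.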

How the data were processed

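RNA of small vesicles from Cal27 spheroids was sequenced in 6 libraries. Per the labels' protocols, about 10 ng of total RNA went into directional libraries with 9 PCR cycles and paired reads of 61 bp. The deposited values are raw counts of reads per gene symbol, not normalized by the authors. The submitters' processing notes name FastQC 0.11.7, Trim Galore 0.4.2, cutadapt 1.9.1, STAR 2.6.1e, featureCounts 1.6.2, DESeq2 1.26.0 and hg38. The annotation, the strand setting and the handling of reads that match several places or overlap several genes are not given in the sources used here.

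Stiff was compared with soft by the robust quasi-likelihood test of edgeR 4.0.16, run in R 4.3.3 after filterByExpr and TMM scaling, with Benjamini-Hochberg adjustment over all genes tested; the step was tested on simulated data. Adjusted p-values are two-sided. limma 3.58.1 and DESeq2 1.42.0 were alternatives, with other scalings, filters, a replicate block and each library left out. Ratios of summed counts were scaled by the TMM library sizes and given exact Clopper-Pearson 95% intervals. The F statistic gave the standard errors. Each pair of replicate libraries was further apart than counting noise alone gives, with a chi-square per degree of freedom of 1.53 to 3.86. Gene lengths came from RefSeq on GRCh38.p14, which held 93% of the symbols, and sequences and overlaps from GENCODE release 29. In 2 stiff libraries the labels' descriptions carry the same replicate number, so titles gave the numbers here.

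The members and lists were chosen with earlier results of these data known. Text names all 10 genes, in each list of U RNA pathway proteins the called genes or else the one with the most counts, the called cell type marker, the U RNA genes present, and the 3 genes nearest to RNU1-1. Single 7SL, 7SK, RMRP and RPPH1 values and the U1 sums were chosen after the values were seen. The sequence of RNU6-1 is not reported here.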

Additional observations from a re-analysis of the deposited data

How the results depend on the processing

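Depth limits these results, since 9 of the 10 genes had 28 counts or fewer over 6 libraries. The number of genes called, 140, became 4194 with library totals alone, 67 with DESeq2, 43 with DESeq2 without independent filtering, 91 with limma-voom and 60 to 136 when each library was left out. Other scalings and filters gave 132 to 151 genes and the replicate block 173. U RNA genes called were 0, but 1 with library totals alone and 0 to 1 when each library was left out, RNU1-1 being called without soft replicate 1. Over the 14 alternatives that gave RNU1-1 an adjusted p, its log2 fold change lay between -1.45 and -1.002 and its adjusted p between 0.00163 and 0.73. With library totals alone it was -1.18 relative to the median of all genes, which that scaling moved to -0.27. The stricter filter removed RNU1-1, and DESeq2 with its own filter gave it no adjusted p. The sum of 5 identical U1 genes was called at -1.01, and was not called at -1.01 in DESeq2 without independent filtering, at -0.93 without RNU1-1 and at -0.66 without soft replicate 3; leaving out each library gave -1.26 to -0.66. The causes were not tested. The sum of 11 other U1 genes was called with library totals alone, at -0.73 with an adjusted p of 0.00506. The ratio of summed shares stayed between 0.423 and 0.596. The sign of the mean difference in CPM changed for RNU4-1, RNU5A-1 and RNU4ATAC when single libraries were left out, and RNU2-1 went to 0 without stiff replicate 2. No pairing of libraries by replicate number was visible, with correlations of deviations of 0.002, 0.004 and -0.008 for the same number. Those for other numbers were as small, at -0.009 to 0.006, so the check cannot exclude a pairing. Not every library correlated best with its own number. With the replicate block in edgeR, RNU1-1 was at -1.19 with an adjusted p of 0.0571 and the U1 sum at -1.01 with 2.4e-05. A correction for GC content was not run, because 71.2% of 31561 genes had a sequence, under the 80% required.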

Other observations

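Other short RNA genes of the table were held at the same low depth. The 225 miRNA genes of 100 to 200 bases summed to 839, 913 and 893 counts in stiff replicates 1, 2 and 3, against 996, 1178 and 1014 counts in soft replicates 1, 2 and 3. The 216 snoRNA genes of that length summed to 427, 468 and 440 counts in stiff and 435, 472 and 436 counts in soft libraries.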
